A study of Homo sapiens with 6 samples.

Results

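The 10 genes described here are N6AMT1, its activator TRMT112, the other 6 methyltransferases known to bind TRMT112 (METTL5, WBSCR22, TRMT11, THUMPD2, THUMPD3 and ALKBH8), and the translation termination factors ETF1 and GSPT1. They were taken by name from the 19330 genes of an RNA-Seq count table, and 9 of the 10 were among the 8324 genes that passed a filter on low counts. The libraries came from K562 cells, an established human erythroleukemic line. Both conditions carried pLentiCRISPRv2, a lentiviral vector for Cas9 and an sgRNA, and went through puromycin selection and culture to day 10. In sgCtrl the sgRNAs were against the olfactory receptor genes OR11A1 and OR2M4 (written OR2M49 in the labels), or against EGFP according to the methods, and in sgN6AMT1 they were against N6AMT1. Each condition has 3 libraries from separate transductions. The sources used here give no cloning step after selection, and the sgRNA of each library is not given in the sources used here.

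TRMT112 is a small protein without catalytic activity that binds several S-adenosylmethionine-dependent methyltransferases, stabilizes them and activates them. Its complex with N6AMT1 methylates the glutamine of the Gly-Gly-Gln (GGQ) motif of eRF1, the product of ETF1. eRF1 reads all stop codons and places this motif in the peptidyl transferase center of the ribosome, where the finished peptide is released, and eRF3, the GTPase encoded by GSPT1, brings eRF1 to the ribosome. The other enzymes of the group modify RNA. METTL5 and WBSCR22 (current symbol BUD23) methylate the small-subunit rRNA, TRMT11 and THUMPD3 methylate guanosines of tRNAs, THUMPD2 methylates a spliceosomal small nuclear RNA, and ALKBH8 completes a modification of the tRNA wobble uridine.

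These coding stretches encode a catalytic motif of some members and the motif of eRF1 that N6AMT1 methylates, and show how alike the catalytic motif is. The first 3 encode the motif of an asparagine or aspartate, a pair of prolines and an aromatic residue that marks many methyltransferases acting on nitrogen atoms, and the last encodes the GGQ motif of eRF1. The codons of the motif are in capitals, and the sequences are read 5′ to 3′ on the coding strand of the GENCODE v44 transcripts and equal the GRCh38 genome.
N6AMT1: ctggtgtttAATCCCCCCTATgtagtgact
METTL5: gtaattatgAATCCTCCCTTTgggaccaaa
TRMT11: atcattactGATCCTCCATATggtatcaga
ETF1: cacggtagaGGAGGTCAGtcagccttg

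The N6AMT1 stretch lies in a coding exon at chr21:28879882-28879911 on the minus strand, and its capitals are codons 122 to 125 counted from the start codon. The METTL5 stretch lies at chr2:169821102-169821131 on the minus strand, with codons 126 to 129 in capitals. The TRMT11 stretch crosses an exon junction, at chr6:126011405-126011417 and chr6:126012771-126012787 on the plus strand, with codons 308 to 311 in capitals. The ETF1 stretch also crosses a junction, at chr5:138513568-138513571 and chr5:138512932-138512954 on the minus strand, and its capitals are codons 183 to 185, of which the last encodes the methylated glutamine. N6AMT1 and METTL5 share the form with asparagine, which 56 of 20033 coding sequences (0.28%) held in frame, and TRMT11 has the form with aspartate, which 67 (0.334%) held. Neither form was found in frame in WBSCR22, THUMPD2, THUMPD3 or ALKBH8. In-frame codons for GGQ (GGNGGNCAA or GGNGGNCAG, coding strand only) were common, in 1877 of 20033 coding sequences (9.37%), TRMT11 and GSPT1 among them.

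The sgCtrl libraries held 742470 to 866894 counts and the sgN6AMT1 libraries 959319, 5526904 and 4062363, so that depth moved with the condition and sgN6AMT1 replicates 2 and 3 were the deepest. All 10 markers of K562 cells had counts in every library, with summed levels of 11658 to 18516 cpm (the count relative to the library total, scaled to 1e6) in sgCtrl and 18832 to 34121 cpm in sgN6AMT1. The markers did not move together, since HBG1, HBG2 and HBE1 were higher in all sgN6AMT1 libraries, HBZ, TFRC and LMO2 were lower in all of them, and the other 4 overlapped between conditions. Of 11 markers of other blood cells 10 were listed, 3 of them at 0 in all libraries, and their summed level was 37.7 to 53.1 cpm in sgCtrl and 68.8 to 88.7 cpm in sgN6AMT1. Of the monocyte markers among them, LYZ had 18.9 to 36.9 cpm in sgCtrl and 42.7 to 63.5 cpm in sgN6AMT1, ITGAM 0 and 5.21 to 12.3 cpm, and CD14 0 and at most 1.04 cpm. The natural killer cell marker NKG7 had 0 cpm in sgCtrl and 1.04 to 1.48 cpm in sgN6AMT1, and the 3 T cell markers overlapped between conditions. The part of these marker differences in the results was not tested. OR11A1 and OR2M4, the olfactory receptors that the control sgRNAs target, had 0 counts in all 6 libraries.

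Between sgCtrl and sgN6AMT1, 0 of the 9 tested members were differentially expressed, that is, had an adjusted p under 0.05 (edgeR quasi-likelihood test, Benjamini-Hochberg over all genes tested), where 9.85% of all tested genes were (5.09% higher and 4.76% lower in sgN6AMT1). Without adjustment, 3 of the 9 had a p under 0.05 (33.3% of them), beside 26.2% of all tested genes: TRMT112 with a positive and METTL5 and GSPT1 with negative log2 fold changes. The 6 others had adjusted p-values of 0.614 to 0.940. METTL5 alone of the 9 did not overlap between conditions (11.1% of them), beside 29.2% of all tested genes. The median log2 fold change of the 9 was -0.09, and that of all tested genes was 0.01. DESeq2 also called 0 members, beside 6.54% of the genes to which it gave an adjusted p, and gave 4 of the 10 an unadjusted p under 0.05. Levels below are cpm with TMM normalization, a scaling between libraries, unless stated otherwise, and folds are log2 ratios of sgN6AMT1 over sgCtrl.

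**Figure D1:**
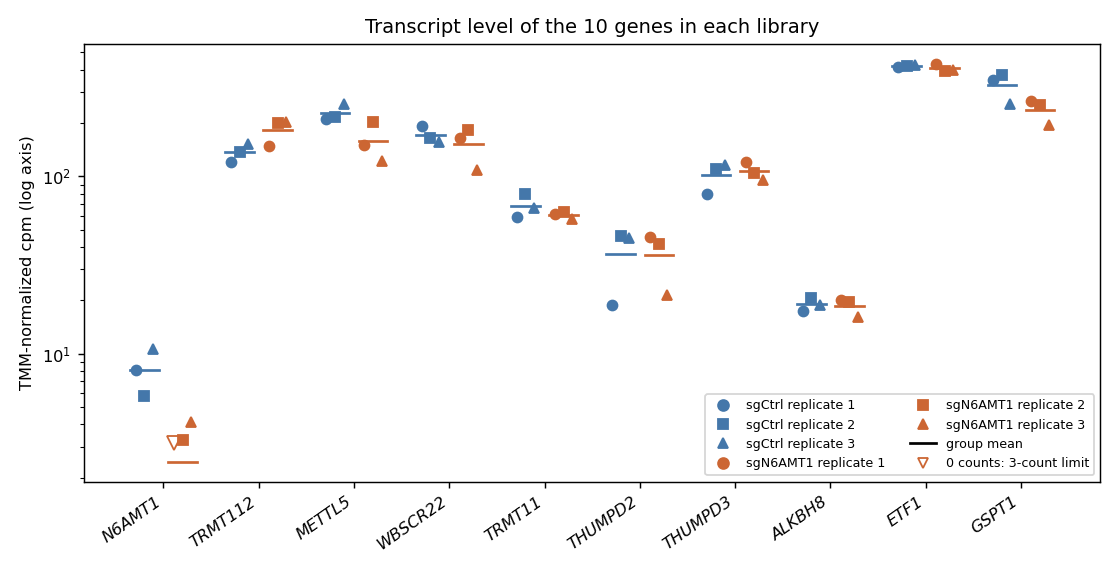
TMM-normalized cpm (log axis) of each of the 10 genes in each library, sgCtrl in blue and sgN6AMT1 in orange, with 1 marker shape per replicate number and a line at the mean of 3 libraries; the open triangle is the limit that 0 counts of N6AMT1 allow. N6AMT1 and METTL5 are the genes whose conditions do not overlap, and sgN6AMT1 replicate 3 is the lowest library for METTL5, WBSCR22, TRMT11, ALKBH8 and GSPT1.

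N6AMT1 was the least abundant member in both conditions. It received 6, 5 and 9 counts in sgCtrl replicates 1 to 3 and 0, 18 and 16 counts in sgN6AMT1. On total counts this was 8.08, 5.77 and 10.4 cpm against 0, 3.26 and 3.94 cpm. The deeper sgN6AMT1 libraries thus held more reads of the gene but a lower level, and the conditions did not overlap. At the pooled sgCtrl rate, replicates 1, 2 and 3 of sgN6AMT1 would have held 7.75, 44.7 and 32.8 counts, and replicates 2 and 3 held 40.3% and 48.8% of that. Summed over libraries, the level in sgN6AMT1 was 0.399 times that in sgCtrl (95% counting interval 0.223 to 0.731), and 0.439 times (0.245 to 0.805) without sgN6AMT1 replicate 1, whose 0 counts allow a level of up to 3.13 cpm. Such intervals, and the limit set by 0 counts, cover no error other than that of counting. The means were 8.08 ± 2.31 (SD, n = 3) and 2.40 ± 2.10 (SD, n = 3) cpm, with p = 0.1 in a two-sided exact permutation test, which with 3 libraries against 3 cannot go lower. N6AMT1 did not pass the filter on low counts. Without the filter edgeR gave a log2 fold change of -1.36 (SE 0.58, adjusted p = 0.137) and DESeq2 gave -1.51 (SE 0.75, adjusted p = 0.231). In these populations fewer cells with the transcript and less transcript per cell cannot be told apart, and a count does not show whether a transcript carries an edit.

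TRMT112 was the member with the largest positive fold change. Its gene lies at chr11:64316460-64317559 on the minus strand. The level was 121, 137 and 153 cpm in sgCtrl replicates 1 to 3 and 149, 199 and 202 cpm in sgN6AMT1. Replicates 2 and 3 of sgN6AMT1 were above all sgCtrl libraries, and replicate 1 lay between sgCtrl replicates 2 and 3. The means were 137 ± 16.2 and 183 ± 30.2 cpm (SD, n = 3 each). The log2 fold change was 0.43 (SE 0.17, 95% interval 0.08 to 0.79) and did not pass the threshold in edgeR (adjusted p = 0.107) or DESeq2 (adjusted p = 0.198). Without sgN6AMT1 replicate 1 it passed, at 0.55 (edgeR adjusted p = 0.0495), and in 15 of 16 alternative fits it did not. Across the tested genes, in 5 bins of transcript GC content, the median log2 fold change went from -0.14 in the lowest bin to 0.19 in the highest. TRMT112, whose transcript is 54.3% GC, lay in bin 4, where the median was 0.11, and after correction of each library for GC content and length its log2 fold change was 0.28 (edgeR adjusted p = 0.241). The annotation lists 7 pseudogenes of TRMT112, and 284 of its 1100 exonic bases are shared with ESRRA on the opposite strand. The use of strand in the counting is not given in the sources used here, so reads there could have been counted for either gene. ESRRA itself had a log2 fold change of 0.51 (SE 0.27, edgeR adjusted p = 0.238).

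**Figure D2:**
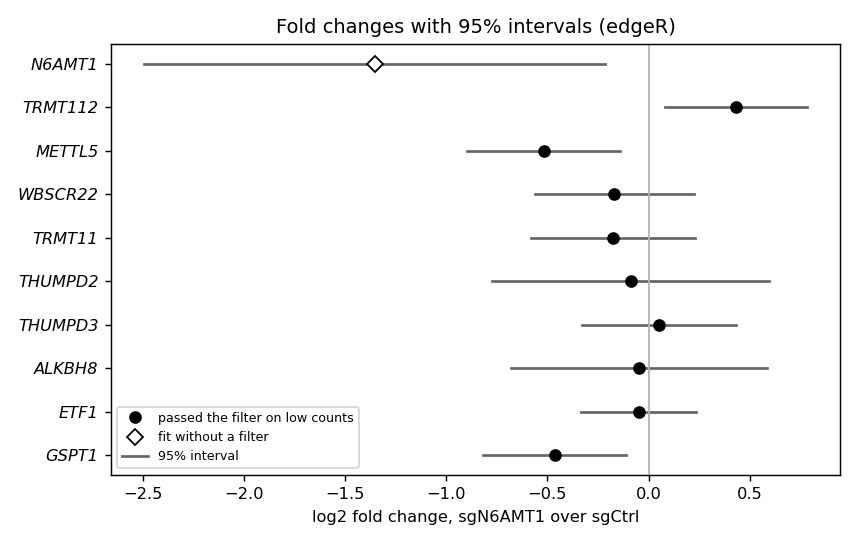
Log2 fold change of sgN6AMT1 over sgCtrl for each of the 10 genes, with lines for 95% intervals of the edgeR fit (3 libraries per condition); the open diamond is N6AMT1 from the fit without a filter on low counts. The intervals of TRMT112, METTL5, GSPT1 and N6AMT1 exclude 0 before adjustment over genes, and those of the other 6 genes include it.

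Of the rRNA methyltransferases, METTL5 had the lowest fold change of the tested members. Its level was 211, 217 and 255 cpm in sgCtrl and 151, 202 and 122 cpm in sgN6AMT1, and all 3 sgN6AMT1 libraries lay below all 3 sgCtrl libraries. The means of 228 ± 23.7 and 158 ± 40.4 cpm (SD, n = 3 each) gave a log2 fold change of -0.52 (SE 0.18, 95% interval -0.90 to -0.14), with an adjusted p of 0.0737 in edgeR and 0.0887 in DESeq2. METTL5 passed the threshold in edgeR without a filter on low counts (adjusted p = 0.0308), after the GC content and length correction (adjusted p = 0.0285) and without sgN6AMT1 replicate 2 (-0.75, adjusted p = 0.0262), and its log2 fold change was -0.34 without sgN6AMT1 replicate 3. It did not pass in 11 of 16 alternative fits. With any library other than sgN6AMT1 replicate 2 left out, its edgeR adjusted p was 0.113 to 0.226. The chi-square per degree of freedom against counting noise was 44.2 among the sgN6AMT1 libraries and 2.03 among the sgCtrl libraries. This measure grows with depth at an equal relative spread, and sgN6AMT1 replicates 2 and 3 were the deepest. These values therefore do not compare the spread between conditions. METTL5 has 4 annotated pseudogenes, and 572 of its 2865 exonic bases are shared with SSB, which encodes the La protein, on the opposite strand. SSB was lower in sgN6AMT1, at 491 ± 172 against 813 ± 29.6 cpm (SD, n = 3 each; log2 fold change -0.73, SE 0.21, edgeR adjusted p = 0.0312). Its part in the METTL5 value was not tested.

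WBSCR22, at chr7:73683597-73698212 on the plus strand, had 194, 164 and 156 cpm in sgCtrl and 165, 183 and 109 cpm in sgN6AMT1. Replicates 1 and 2 of sgN6AMT1 lay within the sgCtrl range and replicate 3 below it. Its log2 fold change was -0.17 (95% interval -0.56 to 0.22, edgeR adjusted p = 0.614) and became 0.04 without sgN6AMT1 replicate 3. The chi-square per degree of freedom was 40.8 in sgN6AMT1 and 1.82 in sgCtrl, with the same dependence on depth as for METTL5.

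Among the tRNA enzymes, no fold change stood outside the spread between libraries. TRMT11, which together with TRMT112 methylates guanosine in tRNAs, had 59.1, 79.6 and 66.0 cpm in sgCtrl and 61.1, 63.0 and 57.8 cpm in sgN6AMT1, a log2 fold change of -0.18 (95% interval -0.58 to 0.23, edgeR adjusted p = 0.615). THUMPD3 had 79.3, 111 and 116 cpm in sgCtrl and 120, 105 and 95.9 cpm in sgN6AMT1. Its log2 fold change of 0.05 (95% interval -0.33 to 0.43) turned to -0.10 without sgCtrl replicate 1, the lowest library. ALKBH8, the least abundant tested member, held 13 to 18 counts per sgCtrl library and 19, 108 and 63 counts in sgN6AMT1. This gave 19.0 ± 1.66 and 18.6 ± 2.12 cpm (SD, n = 3 each), and a wide 95% interval of -0.68 to 0.58 around a log2 fold change of -0.05. THUMPD2, the snRNA enzyme, was uneven within both conditions, with 18.8, 46.1 and 44.8 cpm in sgCtrl and 45.3, 41.4 and 21.3 cpm in sgN6AMT1. One library of each condition was low, sgCtrl replicate 1 and sgN6AMT1 replicate 3, and the log2 fold change moved from -0.39 without the former to 0.21 without the latter.

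Ratios within a library need no scaling between libraries, and they set each enzyme against the shared activator. The summed counts of the 7 methyltransferases were 4.86, 4.69 and 4.35 times the TRMT112 count in sgCtrl and 3.79, 3.09 and 2.11 times in sgN6AMT1. All sgN6AMT1 libraries lay below all sgCtrl libraries, a difference of -0.67 on the log2 scale (p = 0.1 by the exact permutation test, adjusted p = 0.225 over 9 such tests). Without sgN6AMT1 replicate 3 it was -0.43, and with another library left out -0.63 to -0.86. The METTL5 count was 1.74, 1.58 and 1.66 times that of TRMT112 in sgCtrl and 1.01, 1.01 and 0.602 times in sgN6AMT1, again without overlap. The difference was -0.96 on the log2 scale, with p = 0.1 in the same exact test. TRMT11 to TRMT112 was also lower in every sgN6AMT1 library, by a difference of -0.57 (exact permutation p = 0.1), while the level of TRMT11 alone overlapped between conditions. The share of all tested genes whose ratio to TRMT112 does not overlap was not determined. A ratio without overlap is therefore not read as a trait of the partner. The ratios of WBSCR22, THUMPD2, THUMPD3 and ALKBH8 to TRMT112 overlapped between conditions, with differences of -0.33 to -0.61 and exact permutation p-values of 0.2 to 0.6. All these ratios share the TRMT112 count, so they are not independent of one another or of the fold change of TRMT112. The transcript of TRMT112 is also richer in GC than those of its partners, and fold changes ran with GC content across the tested genes. The part of this trend in the ratios was not tested. After the GC content and length correction, the log2 fold change relative to that of TRMT112 went from -0.61 to -0.35 for TRMT11 and from -0.48 to -0.17 for ALKBH8. For THUMPD2 it went from -0.52 to -0.29 and for THUMPD3 from -0.38 to -0.11. It moved less for METTL5, from -0.95 to -0.84, and for WBSCR22, from -0.60 to -0.58. Within the 7 enzymes, METTL5 made up 35.9%, 33.7% and 38.2% of their summed counts in sgCtrl and 26.8%, 32.7% and 28.6% in sgN6AMT1. The share of each of the other 6 overlapped between conditions.

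**Figure D3:**
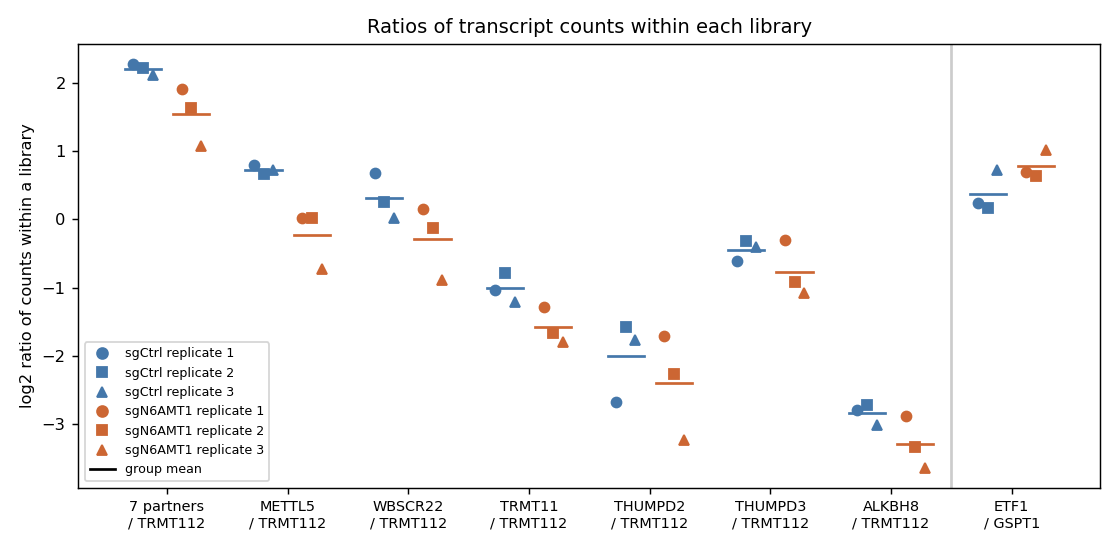
Log2 ratio of the counts of 2 genes (or of the summed counts of the 7 methyltransferases to TRMT112) within each library, sgCtrl in blue and sgN6AMT1 in orange, with 1 marker shape per replicate number and lines at the means of 3 libraries. The 7 partners, METTL5 and TRMT11 relative to TRMT112 do not overlap between conditions, and ETF1 relative to GSPT1 does. The share of all tested genes without overlap relative to TRMT112 was not determined.

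ETF1, the substrate of N6AMT1, had nearly the same level in both conditions. Its level was 411, 421 and 426 cpm in sgCtrl and 431, 391 and 396 cpm in sgN6AMT1, so that sgN6AMT1 replicate 1 was the highest of all 6 libraries and replicates 2 and 3 were the lowest. The means were 419 ± 7.36 and 406 ± 21.7 cpm (SD, n = 3 each), and the log2 fold change of -0.05 had a 95% interval of -0.34 to 0.24 (edgeR adjusted p = 0.861). The spread within a condition was close to counting noise (chi-square per degree of freedom 0.101 in sgCtrl and 1.60 in sgN6AMT1). These counts measure ETF1 transcripts and not the methylation of eRF1. The annotation lists 3 pseudogenes of ETF1.

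GSPT1, at chr16:11868128-11916082 on the minus strand, had 348, 375 and 257 cpm in sgCtrl and 267, 252 and 195 cpm in sgN6AMT1. Replicates 2 and 3 of sgN6AMT1 lay below all sgCtrl libraries, and replicate 1 lay above sgCtrl replicate 3. The log2 fold change was -0.46 (SE 0.17, 95% interval -0.82 to -0.11), with an adjusted p of 0.0855 in edgeR and 0.0952 in DESeq2. It passed the threshold without a filter on low counts (-0.47, edgeR adjusted p = 0.0457) and without sgCtrl replicate 3 (-0.61, edgeR adjusted p = 0.0372), the low control library. In 13 of 16 alternative fits GSPT1 did not pass. With any library other than sgCtrl replicate 3 left out, its edgeR adjusted p was 0.0599 to 0.341. After the GC content and length correction its log2 fold change was -0.32 (edgeR adjusted p = 0.165). The 2 subunits of the release factor complex were compared with each other by the ratio of ETF1 to GSPT1 counts, which was 1.18, 1.12 and 1.66 in sgCtrl and 1.62, 1.56 and 2.03 in sgN6AMT1. The conditions overlapped, and the difference of 0.40 on the log2 scale had p = 0.3 in a two-sided exact permutation test (adjusted p = 0.386 over the 9 tests).

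Levels were compared between genes after division by transcript length, as TMM-normalized cpm per kb. The length is that of a single annotated transcript per gene, such as 4861 bases for N6AMT1, of which 642 are coding, and 812 for TRMT112. Which transcript forms these cells held was not determined, so ratios between genes depend on this choice. In sgCtrl the order was METTL5 (227 ± 23.7), TRMT112 (169 ± 19.9), WBSCR22 (142 ± 16.6), ETF1 (114 ± 2.00), GSPT1 (45.7 ± 8.66), TRMT11 (37.0 ± 5.65), THUMPD3 (27.1 ± 5.25), THUMPD2 (16.6 ± 6.99), ALKBH8 (4.68 ± 0.41) and N6AMT1 (1.68 ± 0.50), each with the SD of 3 libraries. Among neighbours in this order the libraries of TRMT112 and WBSCR22 overlapped, as did those of GSPT1 and TRMT11, and the other neighbours did not overlap. The level of METTL5 per kb was above 95.5% of the tested genes with an annotated length, that of TRMT112 above 94.2%, and that of N6AMT1 above 1.67%. N6AMT1 is set here against genes that passed the filter on low counts, which it did not pass, so a low place was to be met. TRMT112 had 101 times the level of N6AMT1 per kb. The 7 methyltransferases together held 2.95, 2.68 and 2.53 times the level of TRMT112 per kb in sgCtrl and 2.07, 1.79 and 1.14 times in sgN6AMT1, where TRMT112 (226 ± 37.2) came before METTL5 (158 ± 40.4) and the rest of the order was the same. ETF1 was at 2.29, 2.18 and 3.21 times the level of GSPT1 per kb in sgCtrl and 3.14, 3.02 and 3.93 times in sgN6AMT1.

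Genes of related functions were read from the same fit in 6 lists of 79 genes, of which 72 were tested. In all, 1 of the 72 was higher in sgN6AMT1 and 5 were lower (8.33% called, beside 9.85% of all tested genes), and 66 were not called. Of 10 tested genes of cytosolic termination and ribosome recycling, 0 were higher and 3 lower, with a median log2 fold change of -0.23 beside 0.01 for all tested genes. These 3 were also all that had an unadjusted p under 0.05 (30.0%, beside 26.2% of all tested genes). EIF3J, an initiation factor subunit that also acts in recycling, was lowest, with 220, 187 and 171 cpm in sgCtrl and 131, 99.1 and 46.0 cpm in sgN6AMT1 (log2 fold change -1.13, SE 0.26, edgeR adjusted p = 0.0117). The poly(A)-binding proteins, which contact eRF3, were the other two. PABPC1 had 2486, 2230 and 1833 cpm in sgCtrl and 1664, 1232 and 927 cpm in sgN6AMT1 (-0.78, SE 0.19, edgeR adjusted p = 0.0173), and PABPC4 had 400, 399 and 347 cpm against 253, 261 and 279 cpm (-0.53, SE 0.14, edgeR adjusted p = 0.0246). In this list 4 of the 10 tested genes did not overlap between conditions (40.0%), beside 29.2% of all tested genes. The 3 called genes were among these 4, and DESeq2 called all 3. The count of this list was 0 without sgCtrl replicate 1 or without sgCtrl replicate 2, and 1 without sgN6AMT1 replicate 2.

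Of 15 genes in the rRNA modification list, 1 was higher and 1 lower, with a median of -0.20. Without adjustment 8 (53.3%) had a p under 0.05, beside 26.2% of all tested genes, and 9 (60.0%) did not overlap between conditions, beside 29.2%. Both counts include THUMPD1, which acts with NAT10 on tRNA. NSUN5, a methyltransferase of the large-subunit rRNA, had 92.7, 78.5 and 61.3 cpm in sgCtrl and 120, 122 and 166 cpm in sgN6AMT1 (log2 fold change 0.83, SE 0.20, edgeR adjusted p = 0.0136). GAR1, a subunit of the pseudouridine-forming small nucleolar particles, had 34.9, 48.5 and 37.7 cpm against 19.0, 14.4 and 1.54 cpm (-1.98, SE 0.49, edgeR adjusted p = 0.0173), and was not called by DESeq2 (adjusted p = 0.223). Only 6 counts stood behind GAR1 in sgN6AMT1 replicate 3, and this list had 0 calls without sgCtrl replicate 2 and 1 without sgCtrl replicate 3. The list of mitochondrial release and recycling factors had 6 tested genes, that of tRNA methyltransferases 25 and that of the wobble uridine pathway 12. In edgeR 0 of these were called, and 0, 5 and 1 (0%, 20.0% and 8.33%, beside 26.2% of all tested genes) had an unadjusted p under 0.05. DESeq2 called 0 in these lists, and the medians were -0.15, 0.03 and 0.13. The tRNA list includes TYW1, which is not a methyltransferase. Without sgN6AMT1 replicate 2 the first of these lists had 1 call, in a run that tested 7 of its genes. HEMK1, the release factor methyltransferase, did not pass the filter in the main fit and was among the 7. HEMK1 held 3, 5 and 3 counts in sgCtrl replicates 1 to 3, about the limit set for 0 counts, and 17, 57 and 60 in sgN6AMT1. It thus passed the filter in that run only through sgN6AMT1 libraries, where it was high, so the call is no support for a change. Its level was 4.45 ± 1.17 cpm in sgCtrl and 14.6 ± 3.83 cpm in sgN6AMT1 (SD, n = 3 each), and DESeq2 did not call it (adjusted p = 0.0922). The tRNA methyltransferases had 1 call without sgN6AMT1 replicate 1. In the wobble uridine list, whose pathway precedes ALKBH8, 11 of the 12 fold changes (91.7%) were positive, beside 50.8% of those of all tested genes. The 11 include DPH1 (0.21), which acts in a modification of eEF2 and not of tRNA. The largest were URM1 (0.80) and KTI12 (0.76), with 12, 13 and 7 and 14, 6 and 11 counts in sgCtrl. Both passed the filter, at a minimum of 10 counts, only together with sgN6AMT1 libraries. URM1, KTI12, ELP5, ELP6, DPH1 and CTU2 had 54.5% to 62.9% GC, in bins with medians of 0.11 and 0.19, and the rest of the 11 had 36.4% to 47.0%. The part of low counts and GC content in the 91.7% was not tested. Of 4 tested methyltransferases of elongation factors and ribosomal proteins, 1 was lower. This was METTL13, an enzyme of elongation factor eEF1A, with 88.7, 87.7 and 83.7 cpm in sgCtrl and 51.6, 57.7 and 61.4 cpm in sgN6AMT1 (log2 fold change -0.59, SE 0.18, edgeR adjusted p = 0.0471, DESeq2 adjusted p = 0.0694), and this call was lost without any of sgCtrl replicates 1, 2 or 3 or sgN6AMT1 replicates 1 or 2.

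**Figure D4:**
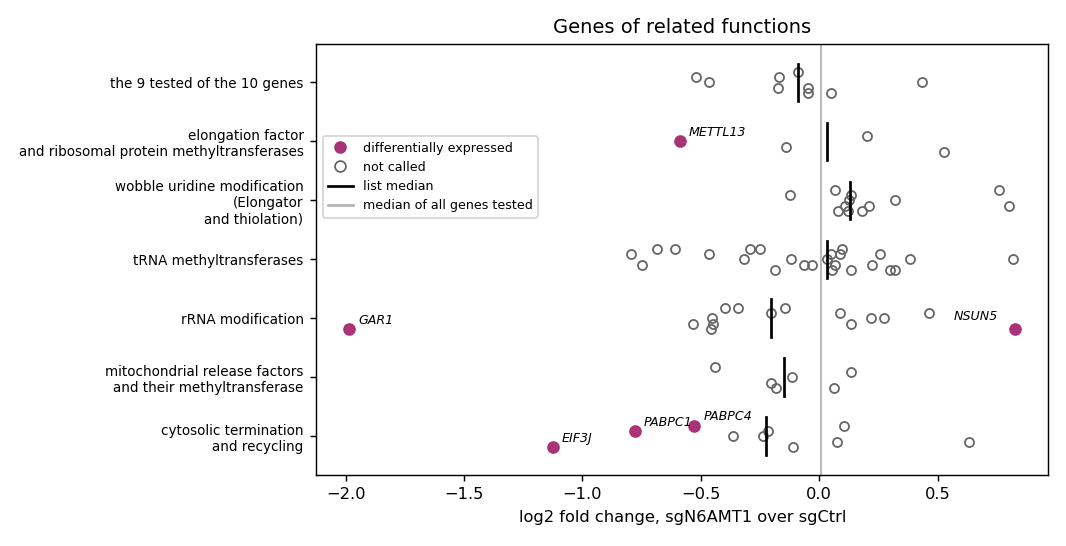
Log2 fold change of sgN6AMT1 over sgCtrl (3 libraries each) for the 72 tested genes of 6 related lists and the 9 tested members, 1 circle per gene, filled where edgeR called the gene, with black lines at list medians and a grey line at the median of all tested genes. The 6 called genes are named, NSUN5 above 0 and EIF3J, PABPC1, PABPC4, GAR1 and METTL13 below, and the 9 members have 0 called genes.

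The genes whose levels ran most like TRMT112 over the 6 libraries (Pearson r of log2 levels, among 4169 tested genes with a mean of at least 50 cpm) were GSTO1 (r = 0.995), F11R (r = 0.994) and ETFB (r = 0.976), and 89 genes had an r of at least 0.9. For ETF1 they were NOP14 (r = 0.956), NUP58 (r = 0.946) and RANBP1 (r = 0.935), with 13 genes at 0.9 or more. The 6 points share their libraries, their depth and the difference between conditions, so these values are a description.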

How the data were processed

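RNA from 3 sgCtrl and 3 sgN6AMT1 transductions of K562 cells was sequenced by the authors as stranded, rRNA-depleted libraries (the labels list polyA RNA). The authors trimmed reads with cutadapt, mapped them with HISAT2 to GRCh38 and deposited raw counts per gene, without normalization; the counting tool and its use of strand are not given in the sources used here. Conditions and replicate numbers come from the labels. From the counts, genes were filtered with filterByExpr, scaled by TMM and compared with glmQLFTest without covariates in edgeR 4.0.16 (R 4.3.3), with adjusted p-values by Benjamini-Hochberg over the 8324 genes tested; this was tested on simulated data. DESeq2 1.42.0, the study's own tool, was an alternative. Single values were compared by exact permutation tests (scipy 1.17.1). The limit for 0 counts was set at 3 counts (0.543 to 4.04 cpm by library). Lengths, GC content and positions are those of GENCODE v44, which 18825 of 19330 symbols matched, 868 through an older symbol. The members and the 6 related lists were chosen with earlier results of these data known. The text names the members, the called genes of each list (at most 3), the control sgRNA targets and the 3 genes most like TRMT112 and ETF1. SSB and ESRRA were added after their values were seen, because they overlap members. Further list genes are named where they limit what a list shows.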

Additional observations from a re-analysis of the deposited data

How the results depend on the processing

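The fits were repeated with DESeq2, RLE size factors, total counts, normalization without mt-DNA-encoded genes, no filter, at least 10 counts in every library, a correction for GC content and length, thinning of the deeper libraries to 866524 counts, and each library left out. The count of members called, 0, was 2 without a filter, 1 with the GC content and length correction alone or with the replicate block, 3 at an unadjusted p under 0.05, and 0 to 1 with a library left out. With a library left out, the lists gave 0 to 3 calls (termination), 0 to 1 (mitochondrial release factors), 0 to 3 (rRNA modification), 0 to 1 (tRNA methyltransferases), 0 to 0 (wobble uridine) and 0 to 1 (elongation factor methyltransferases). The mitochondrial release factor list had 1 call without a filter, where HEMK1 was also tested. The tRNA methyltransferases had 1 with RLE size factors or without a filter. The rRNA modification genes had 1 with DESeq2 or at least 10 counts in every library, and 6 with the GC content and length correction and the replicate block. The elongation factor methyltransferases had 0 with DESeq2, without a filter, with at least 10 counts in every library or after thinning. On the log2 scale METTL5 was -0.52 without a filter, -0.57 with the GC content and length correction and -0.59 with that and the replicate block (adjusted p = 0.0308, 0.0285 and 0.00298, edgeR), and GSPT1 was -0.47 without a filter (edgeR adjusted p = 0.0457). With the GC content and length correction, alone or with the block, ALKBH8 turned to 0.11 and 0.10 and ETF1 to 0.042 and 0.042. With a library left out, the log2 fold changes ran from -1.66 to -1.10 (N6AMT1), 0.35 to 0.55 (TRMT112), -0.11 to 0.054 (ALKBH8), -0.27 to -0.06 (TRMT11), -0.39 to 0.21 (THUMPD2), -0.10 to 0.15 (THUMPD3), -0.34 to 0.040 (WBSCR22), -0.75 to -0.34 (METTL5), -0.09 to -0.02 (ETF1) and -0.61 to -0.34 (GSPT1). The N6AMT1 level difference (-6.84 to -4.48 cpm), the log2 ratio of ETF1 to GSPT1 (0.29 to 0.58) and that of the 7 partners to TRMT112 (-0.86 to -0.43) kept their sign in every alternative run.

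The replicate numbers were not shown to pair the libraries, since deviations of same-numbered libraries correlated by -0.00039, 0.076 and 0.18, and not every library correlated best with its own number. With the replicate block the fit called 1195 genes in place of 820, 2 members (METTL5 at -0.55, adjusted p = 0.0291, and GSPT1 at -0.46, adjusted p = 0.0286, edgeR), and 1 tRNA methyltransferase. The GC content and length correction with the block called 1390 genes, no filter 1201, and leaving out a library 220 to 951.

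Depth limits N6AMT1 most, with 0 to 18 counts per library, and ALKBH8 next.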
